A study of Mus musculus with 20 samples.

Results

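Closely paired promoter platforms are short stretches of chromatin where RNA polymerase II (Pol II) and TBP, the factor that binds core promoters, peaked together beside H3K4me3, with a second such stretch close by. Platforms were made by joining peaks of total Pol II with peaks of TBP wherever they shared at least 1 bp, with at least 1 peak of each. Of 8649 platforms, 6025 were under 600 bp wide and overlapped an H3K4me3 peak, the usual mark of active promoters. Among these, 1800 had another such platform across a gap of at most 1000 bp and are called paired, which was 29.9% (95% Wilson interval 28.7 to 31.0). The other 4225 are called single platforms. Members were thus chosen by their total Pol II, TBP and H3K4me3 peaks, width and gap, and these values are given as descriptions.

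The cells were CD4+/CD8+ double-positive thymocytes, a step in T-cell development, from the thymus of wild-type C57BL/6 mice, aged 5 to 6 weeks where the labels state it. Each target had 1 peak list from chromatin immunoprecipitation sequencing, or from FAIRE, which recovers open chromatin without an antibody. Of 16 lists, 13 came from merged replicates and those of CBP, Taf1 and TFIIB from 1 replicate each, and ETS1 was precipitated on other beads than the rest. No target had a second list, so a spread between animals could not be measured and no p-value is given. Read depth was unknown, and list length, from 1262 TFIIF peaks to 74607 H3K4me1 peaks, limits what each list can show. Intervals cover counting error only, and platforms of a pair are not independent of each other.

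At a promoter, TBP enters as part of TFIID, of which Taf1 is a subunit. TFIIA steadies TBP on DNA, TFIIB bridges TBP and Pol II, TFIIF arrives with Pol II, and TFIIE and TFIIH complete the complex, TFIIH opening the DNA and phosphorylating serine 5 of the Pol II tail (Ser5P). Serine 2 phosphorylation (Ser2P) marks elongating Pol II, and H3K36me3 the bodies of transcribed genes. Many mammalian promoters hold start sites in clusters, and at many of them a second, divergent start lies upstream within the same open region, with promoter nucleosomes carrying H3K4me3 and nucleosomes farther out H3K4me1. ETS1 is a DNA-binding factor of the T-cell lineage and CBP a histone acetyltransferase and coactivator. The strand of transcription, start sites and genes of the pairs were not analysed here, because the mm9 genome and its annotation were not used.

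The 1800 members formed 801 groups in which each platform lay within the gap limit of the next. There were 646 groups of 2, 124 of 3, 22 of 4, 6 of 5 and 3 of 6, so 508 members (28.2%, 26.2 to 30.3) sat in groups of 3 or more. In 819 pairs each platform was the other's nearest neighbour, and these pairs are described as pairs from here on. The remaining 162 members were no other platform's mutual partner. The gap had a median of 210 bp (quartiles 90 and 400), and the partners' centres lay a median of 495 bp apart (380 and 705). Gaps of under 100 bp were the most frequent class, with 208 pairs, followed by 179 pairs at 100 to 190 bp and 138 at 200 to 290 bp. The number then fell to 21 pairs at 900 to 990 bp, with 21 more at 1000 to 1090 bp, so the gap limit cut through a flat tail. At that limit, 7 platforms had a gap of exactly 1000 bp and 9 stood just outside at 1010 bp. Partners touched, with a gap of 0, in 10 pairs, and the other 809 had a gap to examine. The gap held another platform, wider or without H3K4me3, in 8 of them.

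**Figure D1:**
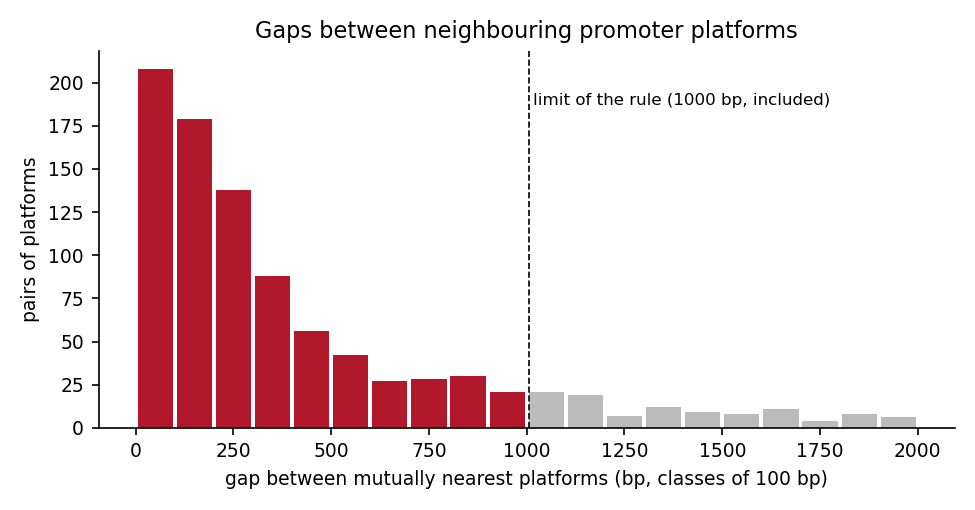
Number of pairs of mutually nearest promoter platforms (vertical axis) by the gap between them in classes of 100 bp (horizontal axis), red within the limit of 1000 bp and grey beyond it. The first class holds 208 pairs and the last class before the limit 21.

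Members were as wide as single platforms, with medians of 270 bp in both (quartiles 200 and 360 for paired, 200 and 350 for single). Their total Pol II area, the authors' own value for a peak, had a median of 34929 at paired and 32428 at single platforms, and their TBP area 45505 at paired and 51134 at single platforms. Both partners were touched by 1 common H3K4me3 peak in 530 of 819 pairs (64.7%, 61.4 to 67.9). The H3K4me3 peak covered the whole gap in 527 of 809 pairs, and 55 gaps held no H3K4me3.

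Open chromatin was less often detected at paired than at single platforms. FAIRE peaks overlapped 30.2% of paired platforms (28.1 to 32.3) and 42.3% of single ones (40.8 to 43.8), against 38.7% of all 6025. The difference was -12.1 percentage points (95% Newcombe interval -14.7 to -9.49), beyond counting error. It held within each class of platform width, at -9.14 points under 200 bp, -12.4 points at 200 to 290 bp, -17.2 points at 300 to 390 bp and -10.2 points at 400 bp and over. Arranged by distance to the next platform, the FAIRE share was 35.4% for gaps up to 100 bp, 30.7% up to 300 bp and 25.9% up to 1000 bp. Single platforms with a neighbour within 5000 bp had 33.6%, those with one within 20000 bp 42.2%, and those farther away 44.0%. The lowest share was therefore in members with the wider gaps. ETS1 was also lower, at 8.61% of paired and 11.5% of single platforms (all 6025: 10.6%), a difference of -2.84 points (-4.41 to -1.18), which was within counting error among members of groups of exactly 2 (-1.70) and with platforms rebuilt from the upper 50% of every list (-1.25). CBP was at 11.1% of paired and 12.8% of single platforms (all: 12.2%), which was within counting error (-1.70 points, -3.42 to 0.113) and beyond it with a gap limit of 500 bp (-2.30 points, -4.08 to -0.371).

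The initiating form of Pol II was more frequent at paired platforms. Ser5P peaks overlapped 70.0% of paired platforms (67.8 to 72.1) and 65.0% of single ones (63.6 to 66.4), with 66.5% in all, a difference of 4.98 points (2.40 to 7.51). TFIIH was at 17.5% of paired and 14.6% of single platforms (all: 15.5%), a difference of 2.92 points (0.909 to 5.02). TFIIE was at 60.9% of paired and 58.2% of single platforms (all: 59.0%), a difference whose interval, 0.00622 to 5.40 points, barely left out 0. These 3 differences did not outlast every setting. Among members with a gap over 100 bp they were 2.41 points for Ser5P, 2.05 for TFIIH and 0.925 for TFIIE, each within counting error. Single platforms with a neighbour within 5000 bp carried more TFIIH (21.7%, 18.6 to 25.3) and TFIIE (68.4%, 64.6 to 72.1) than paired ones. Their Ser5P share was lower, at 64.3% (60.3 to 68.1). The higher TFIIH and TFIIE shares were thus not particular to paired platforms.

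For the remaining lists, paired and single platforms were within counting error of each other. TFIIB was at 60.2% of paired and 61.9% of single platforms (all: 61.4%), and TFIIA at 10.7% of paired and 10.1% of single ones (all: 10.3%). Taf1 was at 9.72% of paired and 9.35% of single platforms (all: 9.46%), and TFIIF at 3.44% of paired and 3.31% of single ones (all: 3.35%). H3K4me1 overlapped 62.4% of paired and 64.6% of single platforms (all: 63.9%), a difference of -2.20 points (-4.88 to 0.442) that varied with width and gap. It was -11.3 points (-17.0 to -5.63) at widths of 300 to 390 bp and -7.06 points (-12.9 to -1.39) at 400 bp and over, and 4.89 points (-0.810 to 10.5) under 200 bp. With a gap limit of 500 bp it was -5.78 points (-8.67 to -2.93), and without the sex chromosomes -3.19 points (-5.87 to -0.538). Ser2P was at 9 paired platforms (0.500%) and 37 single ones (0.876%), with 0.763% in all, and H3K36me3 at 21 paired (1.17%) and 29 single ones (0.686%), with 0.830% in all. Marks of elongation were thus rare at platforms of either kind. Of the 6 general factors, namely TFIIA, TFIIB, TFIIE, TFIIF, TFIIH and Taf1, paired platforms carried 1.63 ± 1.25 and single ones 1.57 ± 1.21 (mean ± SD over 1800 and 4225 platforms), where the SD is the spread between platforms. None of the 6 was listed at 21.8% of either kind. The 580 single platforms with a neighbour within 5000 bp carried 1.85 ± 1.18 of the 6, and TFIIB was at 71.4% of them.

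**Figure D2:**
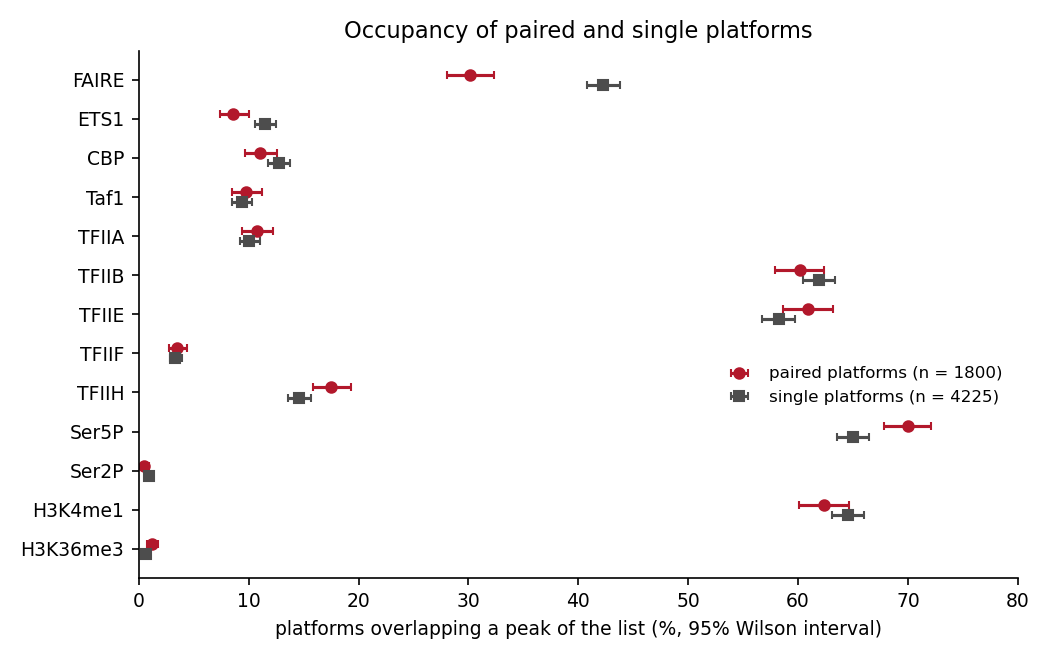
Share of paired (red circles, n = 1800) and single (grey squares, n = 4225) promoter platforms that overlap a peak of each list, in percent, with 95% Wilson intervals. FAIRE stands at 30.2% of paired and 42.3% of single platforms, and the general factors lie close together.

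Sets drawn from TFIIB, TFIIE, Ser5P and FAIRE were also compared, whatever other lists a platform carried. The combination of TFIIB, TFIIE and Ser5P without FAIRE was found at 376 of 1800 paired platforms (20.9%, 19.1 to 22.8) and 661 of 4225 single ones (15.6%, 14.6 to 16.8). The same combination with FAIRE was found at 15.8% of paired (14.2 to 17.6) and 18.2% of single platforms (17.1 to 19.4). TFIIE and Ser5P with neither TFIIB nor FAIRE were at 9.17% of paired (7.92 to 10.6) and 5.80% of single platforms (5.13 to 6.54). FAIRE with none of TFIIB, TFIIE and Ser5P was at 1.61% of paired (1.12 to 2.30) and 3.29% of single platforms (2.79 to 3.87).

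Counted over the whole span from the outer edge of one partner to that of the other, FAIRE did not differ from single platforms beyond counting error. A FAIRE peak touched 397 of 819 pair spans (48.5%, 45.1 to 51.9) and 1922 of 4225 single platforms extended by 210 bp on each side (45.5%, 44.0 to 47.0), a difference of 2.98 points (-0.743 to 6.72). These stretches had median lengths of 800 bp for pairs and 690 bp for extended single platforms. ETS1 touched 15.6% of spans and 12.0% of extended single platforms, a difference of 3.63 points (1.09 to 6.44). For the factors of the initiation complex the span held more: Ser5P was at 89.9% of spans and 68.1% of extended single platforms, TFIIH at 32.7% of spans and 16.0% of extended single platforms, and TFIIA at 21.7% of spans and 10.9% of extended single platforms. Each span holds platforms on both sides of a gap, so these shares sum over more platform sequence. H3K4me1 was at 79.5% of spans (76.6 to 82.1) and 88.5% of extended single platforms (87.5 to 89.4). The extension adds 210 bp on each side of a single platform, whereas spans stop at the partners' outer edges. H3K4me1 touched 66.6% of those added stretches, so its shares are not measured alike. Without extension it overlapped 62.4% of paired and 64.6% of single platforms.

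The gap itself was compared with 2 outer flanks of the same length, 1 on the far side of each partner. A gap borders a platform at each end and a flank at one end only, so peaks that run over the edge of a platform reach a gap more often by layout alone. FAIRE peaks touched 108 of 809 gaps (13.3%, 11.2 to 15.9) and 106 of 1618 flanks (6.55%, 5.45 to 7.86), a difference of 6.80 points (4.26 to 9.55). Either flank of a pair was touched in 101 of 809 pairs (12.5%), and against that share, which covers a platform edge on each side and double the length, the difference was 0.865 points (-2.43 to 4.16, interval over pairs). By gap length this difference was 6.22 points (-0.260 to 12.7) for 10 to 100 bp and 6.64 points (1.08 to 12.2) for 110 to 300 bp. For 310 to 1000 bp it was -9.54 points (-14.6 to -4.52). Of the 113 FAIRE peaks that touched a gap, 7 lay wholly inside it, 65 reached into 1 partner and 41 spanned it into both. A FAIRE peak lay wholly inside 7 gaps (0.865%) and 22 flanks (1.36%).

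Platform edges give a comparison with the same layout on both sides. FAIRE peaks crossed 147 of 1618 inner edges (9.09%) and 79 of 1618 outer edges (4.88%), a difference of 4.20 points (2.13 to 6.28), where a peak that spans the gap counts at both inner edges. The sign of the difference varied with the gap. Next to gaps of 10 to 100 bp FAIRE crossed 14.4% of inner and 5.78% of outer edges (8.67 points, 3.76 to 13.6), and next to gaps of 110 to 300 bp 11.1% of inner and 3.82% of outer edges (7.31 points, 3.80 to 10.8). Next to gaps of 310 to 1000 bp it crossed 2.65% of inner and 5.30% of outer edges (-2.65 points, -4.90 to -0.397). By this count FAIRE crossed inner edges more often than outer edges at closely spaced partners, and less often at widely spaced ones. The 65 inner crossings next to gaps of 10 to 100 bp came from 39 touched gaps, and the 67 next to gaps of 110 to 300 bp from 50. Part of the excess thus came from peaks counted at both inner edges, and its size without them was not tested.

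ETS1 and CBP were rare in gaps, and their differences from the flanks were within counting error. ETS1 touched 18 gaps (2.22%, 1.41 to 3.49) and 25 flanks (1.55%, 1.05 to 2.27), a difference of 0.680 points (-0.410 to 2.04). CBP touched 26 gaps (3.21%, 2.20 to 4.67) and 40 flanks (2.47%, 1.82 to 3.35), a difference of 0.742 points (-0.597 to 2.33). ETS1 crossed 18 inner and 18 outer edges, and CBP 24 inner and 25 outer edges. Next to gaps of 310 to 1000 bp CBP crossed 4 inner and 11 outer edges (-1.24 points, -2.38 to -0.0953). Next to shorter gaps the CBP difference was within counting error. None of FAIRE, ETS1 and CBP touched 677 of 809 gaps (83.7%, 81.0 to 86.1), and 4 gaps were touched by each of the 3. ETS1 was at 7 of 108 gaps with FAIRE (6.48%, 3.17 to 12.8) and 11 of 701 without (1.57%, 0.878 to 2.79). CBP was at 9 of 108 gaps with FAIRE (8.33%, 4.45 to 15.1) and 17 of 701 without (2.43%, 1.52 to 3.85). Lists of 2359 ETS1 and 6372 CBP peaks leave few peaks for so short a sequence, and smaller differences were not detectable with these counts.

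Of the initiation machinery, Ser5P, TFIIE and TFIIB touched gaps more often than single flanks. For TFIIE and TFIIB, inner and outer platform edges were within counting error over all gaps, and differed in some classes of gap length. Ser5P touched 42.4% of gaps and 25.2% of flanks (difference 17.2 points, 13.2 to 21.2), TFIIE 27.9% of gaps and 18.4% of flanks (9.58 points, 6.01 to 13.2), and TFIIB 18.0% of gaps and 12.6% of flanks (5.44 points, 2.41 to 8.63). Either flank was touched in 42.2% of pairs for Ser5P, 32.5% for TFIIE and 22.7% for TFIIB. The gap was thus within counting error of that share for Ser5P (0.247 points, -4.17 to 4.66) and lower for TFIIE (-4.57 points, -8.82 to -0.324) and TFIIB (-4.70 points, -8.49 to -0.909). For Ser5P the value averages unlike classes. It was 11.0 points (3.49 to 18.4) for gaps of 310 to 1000 bp. For gaps of 10 to 100 bp (-5.78) and 110 to 300 bp (-5.32) it was within counting error. TFIIE crossed 14.3% of inner and 14.5% of outer edges (-0.185 points, -2.73 to 2.35). TFIIB crossed 8.16% of inner and 8.47% of outer edges (-0.309 points, -2.29 to 1.67). These values also average unlike classes. Next to gaps of 10 to 100 bp the difference was 6.00 points (0.483 to 11.5) for TFIIE and 5.56 points (1.65 to 9.47) for TFIIB. Next to gaps of 110 to 300 bp both were within counting error. Next to gaps of 310 to 1000 bp it was -3.71 points (-7.86 to 0.444) for TFIIE and -4.95 points (-7.92 to -1.98) for TFIIB.

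Ser5P crossed 23.4% of inner and 18.9% of outer edges, a difference of 4.51 points (1.76 to 7.26). It was 8.48 points (4.18 to 12.8) next to gaps of 310 to 1000 bp, and within counting error next to gaps of 10 to 100 bp (4.67 points, -1.11 to 10.4) and 110 to 300 bp (0.664 points, -3.73 to 5.06). A Ser5P peak lay wholly inside 89 gaps (11.0%) and 88 flanks (5.44%), a difference of 5.56 points (3.26 to 7.87). Of these 89 gaps, 68 were 310 to 1000 bp long. A TFIIE peak lay inside 47 gaps (5.81%) and 43 flanks (2.66%), a difference of 3.15 points (1.48 to 4.82). Total Pol II chose the platforms, so its values here are a description. A total Pol II peak of neither partner touched 113 gaps (14.0%), against 9.64% of flanks with a Pol II peak. For gaps of 310 to 1000 bp these shares were 29.3% of gaps and 15.7% of flanks. TFIIH touched 3.83% of gaps and 3.34% of flanks, TFIIA 2.84% of gaps and 2.29% of flanks, Taf1 2.60% of gaps and 2.41% of flanks, and TFIIF 1.48% of gaps and 0.865% of flanks, each within counting error. For gaps of 10 to 100 bp alone, 2 of these 4 lists passed counting error on few peaks. TFIIH touched 10 gaps and 7 flanks there (2.89 points, 0.305 to 6.52), and TFIIF 5 gaps and 0 flanks (2.22 points, 0.697 to 5.10). Ser2P was at 0.371% of all gaps and of all flanks. With platforms rebuilt from the upper 50% of every list, neither TFIIE (4.35 points) nor TFIIB (3.08 points) differed between gaps and flanks beyond counting error.

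H3K4me1 was less frequent in gaps than in flanks. It was low at platforms, covering 37.7% at the centre of single ones against 71.7% at 560 bp to the left. A gap lies near a platform at both ends, so the layout does not favour gaps for this list. It touched 357 of 809 gaps (44.1%, 40.7 to 47.6) and 1143 of 1618 flanks (70.6%, 68.4 to 72.8), a difference of -26.5 points (-30.5 to -22.4). By gap length the difference was -22.9 points for 10 to 100 bp, -30.6 points for 110 to 300 bp and -25.1 points for 310 to 1000 bp. H3K4me1 crossed 36.7% of inner and 54.8% of outer edges (-18.1 points, -21.0 to -15.2). Counted by peak midpoints, the H3K4me1 difference was -6.74 points (-9.53 to -3.77). H3K4me3, which chose the platforms, touched 93.2% of gaps and 93.0% of flanks. H3K36me3 touched 4 gaps (0.494%) and 25 flanks (1.55%), a difference of -1.05 points (-1.84 to -0.135) that was within counting error when peaks were counted by their midpoints, at -0.0618 points.

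**Figure D3:**
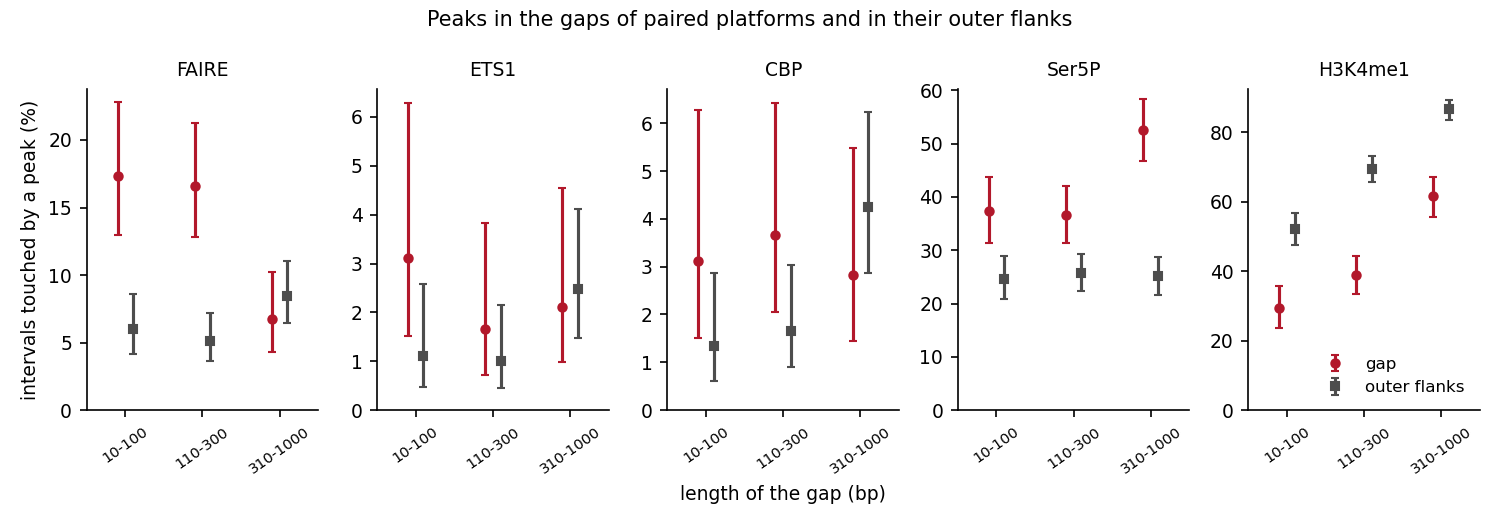
Share of gaps (red circles) and of their outer flanks of equal length (grey squares) touched by a FAIRE, ETS1, CBP, Ser5P or H3K4me1 peak, in percent with 95% Wilson intervals, by gap length (225, 301 and 283 pairs), each panel with its own vertical scale. A gap borders 2 platforms and a flank 1, which favours the gap for lists that peak at platforms. H3K4me1 is low at platforms, and it is lower in gaps than in flanks in the 3 classes.

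Averaged over all 819 pairs, the profile had 2 maxima for the initiation machinery and 1 trough for H3K4me1. By the rule the gap centre lies between platforms, which favours 2 maxima for lists that peak at platforms. Ser5P covered 40.7% of pairs at 240 bp left of the gap centre, 15.1% at the centre and 42.9% at 240 bp to the right. TFIIE covered 31.4% at 240 bp to the left, 8.79% at the centre and 30.7% at 200 bp to the right. FAIRE showed no comparable dip, with 10.5% at 220 bp to the left, 8.43% at the centre and 9.04% at 80 bp to the right. H3K4me1 was lowest near the gap centre, at 37.2% there, against 74.4% at 900 bp to the left and 71.8% at 780 bp to the right. At the centre of single platforms H3K4me1 covered 37.7% of loci, with maxima of 71.7% at 560 bp to the left and 73.5% at 620 bp to the right. The trough reached a similar level at pairs and at single platforms, and its shoulders stood farther apart at pairs. A pair spans 2 platforms and their gap, so this wider spacing is no separate result.

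**Figure D4:**
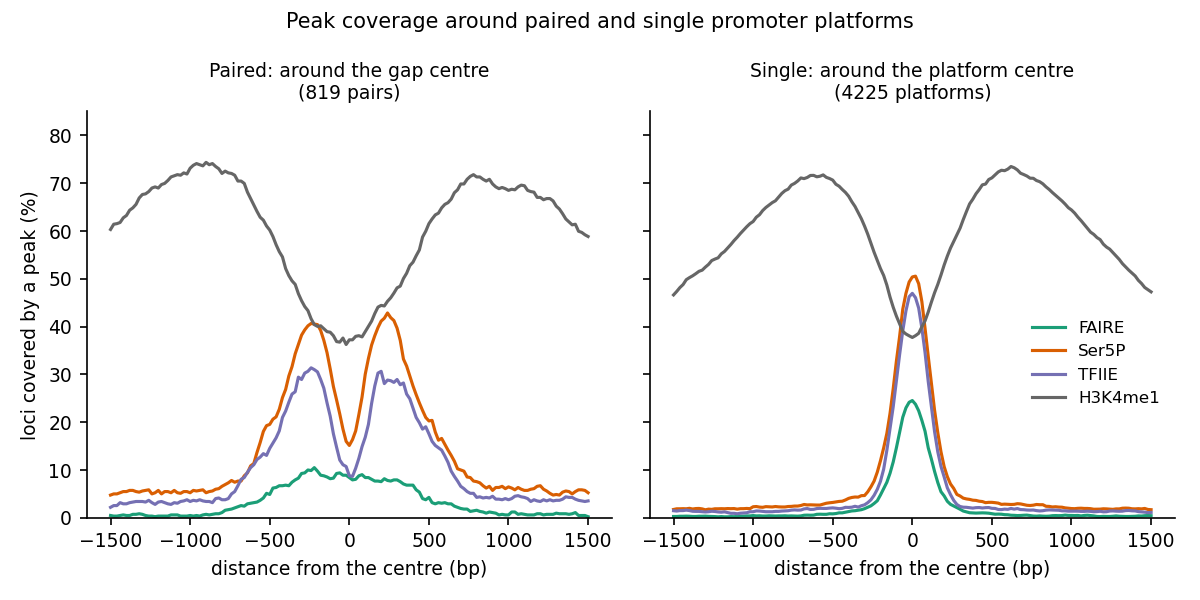
Share of loci covered by a peak of FAIRE, Ser5P, TFIIE or H3K4me1, in percent (vertical axis), by distance in bp from the gap centre of 819 pairs (left panel) and from the centre of 4225 single platforms (right panel), without regard to strand. Pairs have 2 Ser5P maxima of 40.7% and 42.9% around a centre of 15.1%, and single platforms 1 maximum at the centre. The choice of centre, between platforms for pairs and on the platform for single ones, favours this contrast.

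Partners were unequal in strength. The median absolute log2 ratio of the partners' Pol II areas was 1.06 (quartiles 0.51 and 1.93), and in 190 pairs (23.2%) the areas differed more than 4-fold. For TBP the median was 1.23 (0.54 and 2.02), with 209 pairs (25.5%) more than 4-fold apart. Neighbours across gaps over 1000 and up to 5000 bp had medians of 1.00 for Pol II and 0.99 for TBP (217 pairs), and across gaps over 5000 and up to 20000 bp 1.08 for Pol II and 1.07 for TBP (254 pairs). The rank correlation of the partners' Pol II areas was 0.109 across 819 pairs that share the library. Neither side was favoured, with a median signed log2 ratio of left over right of -0.04.

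Partners shared some lists more than others. FAIRE was at both partners in 116 pairs, at 1 in 279 and at neither in 424, so 45.4% of platforms whose partner had FAIRE had it too, and 24.8% of those whose partner lacked it. In 43 of the 116 pairs a single FAIRE peak reached both partners, and without these pairs the share with a FAIRE-bearing partner was 34.4%. ETS1 was at 27.8% of platforms whose partner had it and 6.96% of those whose partner lacked it, and 16 of its 20 shared pairs had separate peaks. CBP was at 28.6% where the partner had it and 9.32% where it did not, with separate peaks in 22 of 27 shared pairs. Ser5P was at 73.3% where the partner had it and 62.8% where it did not, and TFIIB at 64.2% where the partner had it and 53.8% where it did not.

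For TFIIE, TFIIH and TFIIA the shares differed by under 5 points. TFIIE was at 62.8% of platforms whose partner had it and 59.2% of those whose partner lacked it, TFIIH at 21.3% where the partner had it and 17.0% where it did not, and TFIIA at 10.9% where the partner had it and 11.3% where it did not. H3K4me1 was at 71.0% where the partner had it and 46.3% where it did not, but in 220 of its 358 shared pairs 1 peak covered part of both partners, and without these the share was 48.6%. The 11 factor lists matched exactly in 51 of 819 pairs (6.23%), in 9 of 217 neighbours across gaps up to 5000 bp (4.15%) and in 7 of 254 across gaps up to 20000 bp (2.76%).

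FAIRE, ETS1 and CBP were next set against neighbours with larger gaps. Of pairs with ETS1 at either partner, 16.1% had it at both (10.7 to 23.6), against 6.90% (2.71 to 16.4) across gaps up to 5000 bp and 5.56% (1.91 to 15.1) across gaps up to 20000 bp. For FAIRE the share was 29.4% (25.1 to 34.0) in pairs, 25.0% (18.1 to 33.4) across gaps up to 5000 bp and 26.1% (20.2 to 33.1) across gaps up to 20000 bp. For CBP it was 16.7% (11.7 to 23.2) in pairs, 20.0% (12.1 to 31.3) across gaps up to 5000 bp and 7.02% (2.77 to 16.7) across gaps up to 20000 bp. The intervals of pairs overlapped those of farther neighbours for each of these 3 lists, which is no test of a difference. This share also rises with how common a list is. Where the neighbour had or lacked FAIRE, 40.0% and 31.7% of platforms carried it across gaps up to 5000 bp, and 41.4% and 45.5% up to 20000 bp. For ETS1 these shares were 12.9% and 14.5%, then 10.5% and 11.3%. For CBP they were 33.3% and 14.6%, then 13.1% and 11.9%. In pairs they were 45.4% and 24.8% for FAIRE, 27.8% and 6.96% for ETS1, and 28.6% and 9.32% for CBP.

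**Figure D5:**
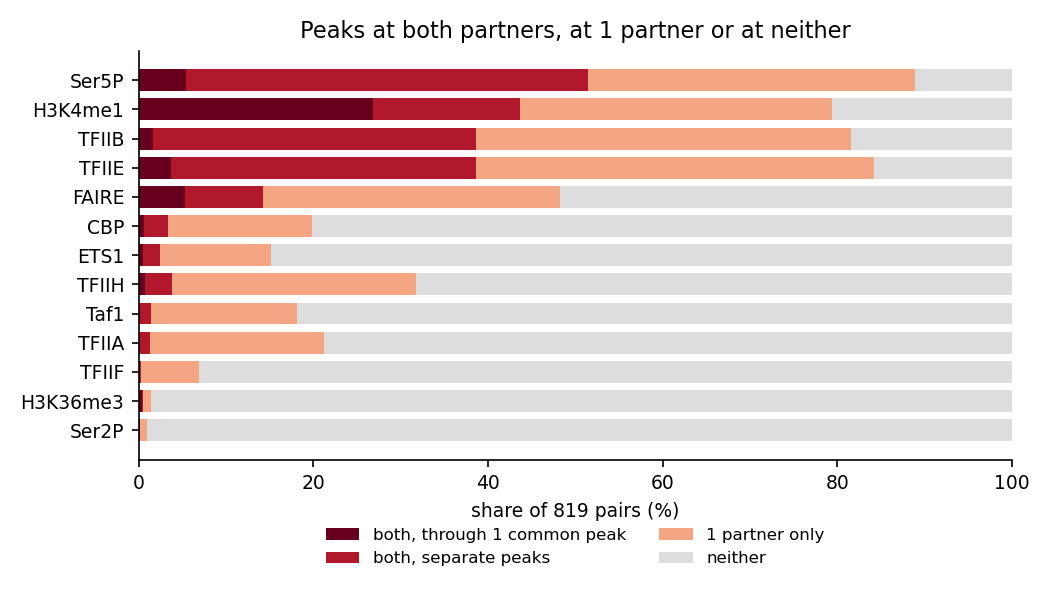
For each list, the share of 819 pairs (horizontal axis, percent) in which both partners overlap 1 common peak (dark red), both overlap separate peaks (red), 1 partner overlaps a peak (orange) or neither does (grey). FAIRE is at both partners in 116 pairs, 43 of them through a common peak, and H3K4me1 is at both in 358, 220 of them through a common peak.

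The partner with the larger Pol II area carried more of most lists. FAIRE was at 38.3% of stronger and 24.1% of weaker partners (difference 14.3 points, 10.4 to 18.2), with 198 pairs holding it at the stronger partner alone and 81 at the weaker alone. TFIIE was at 73.4% of stronger and 49.5% of weaker partners (23.9 points, 19.6 to 28.3), Ser5P at 80.8% of stronger and 59.5% of weaker ones (21.4 points, 17.4 to 25.3), and TFIIB at 70.2% of stronger and 49.9% of weaker ones (20.3 points, 16.0 to 24.5). TFIIH was at 25.6% of stronger and 9.89% of weaker partners (15.8 points, 12.3 to 19.2). H3K4me1 was at 62.5% of stronger and 60.6% of weaker partners, within counting error. Stronger partners were also wider, with a median of 320 bp against 220 bp for weaker ones, and area grows with width.

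In the 236 pairs whose widths differed by at most 50 bp the differences were smaller for FAIRE, TFIIE, Ser5P, TFIIB and TFIIH. FAIRE was at 36.0% of stronger and 28.0% of weaker partners (8.05 points, 1.33 to 14.8), TFIIH at 18.2% of stronger and 6.78% of weaker ones (11.4 points, 5.57 to 17.3), and Ser5P at 71.6% of stronger and 59.7% of weaker ones (11.9 points, 4.31 to 19.4). ETS1, at 10.6% of stronger and 6.96% of weaker partners over all pairs (3.66 points, 1.24 to 6.09), turned direction in these pairs, at 8.47% of stronger and 11.0% of weaker ones (-2.54 points, -7.37 to 2.29). CBP was no longer beyond counting error, at 9.75% of stronger and 8.05% of weaker partners. H3K4me1 was within counting error in both sets of pairs, at 54.7% of stronger and 57.2% of weaker partners of like width. In the outer flanks H3K4me1 touched 70.6% on the stronger partner's side and 70.7% on the weaker partner's side.

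Individual pairs are given by their mm9 positions, without genes. On chr9, platforms at 14079461 to 14079950 and 14080171 to 14080580, 220 bp apart, carried the same lists, FAIRE, TFIIA, TFIIB, TFIIE, TFIIH, Ser5P and H3K4me1. The Pol II areas of that pair were 160508 for the left and 126405 for the right partner, and Ser5P was the one list of the 13 independent of the rule to touch its gap. On chr8, platforms at 26707301 to 26707650 and 26707791 to 26708360 had the largest Pol II area in a weaker partner among groups of 2, 126489 at the left against 236573 at the right. They shared 6 factor lists, and the right one also had CBP and Taf1.

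Other pairs were one-sided. On chr13, the platform at 91510391 to 91510960 carried FAIRE, Taf1, TFIIA, TFIIB, TFIIE, TFIIH and Ser5P, and its neighbour at 91511021 to 91511150, 60 bp away, none of the 11 factor lists. On chr7, the platform at 150194431 to 150194880 carried 8 factor lists, ETS1 and CBP among them, and its neighbour at 150194111 to 150194340 carried Ser5P as its one factor list. The largest ratio of Pol II areas, 40.1-fold, lay on chr10 between 92586911 to 92587330 and 92586241 to 92586320, the second of which is 80 bp wide.

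FAIRE, ETS1 and CBP touched the gap together in 3 pairs in groups of 2. On chr8, between platforms at 97125491 to 97125640 and 97125841 to 97125940, the ETS1 peak had an area of 12139, the largest of the 3. On chr2, platforms at 117243311 to 117243500 and 117244311 to 117244600, 810 bp apart, both carried FAIRE, ETS1, CBP, TFIIB and TFIIE as well. On chr6, the gap of 120 bp between 66484981 to 66485230 and 66485351 to 66485590 was also touched by TFIIB and TFIIE.

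The 3 largest chains held 6 platforms each and differed in content. On chr4, from 102661251 to 102664530, all 6 platforms carried Ser5P and H3K4me1, 5 TFIIB, 4 TFIIE, 4 CBP and 3 TFIIH. On chr10, from 20878011 to 20881600, all 6 carried Ser5P, 4 TFIIE and 2 TFIIB, and FAIRE, ETS1 and CBP were at none. On chr9, from 62189061 to 62192750, 4 carried Ser5P, 3 TFIIE, 2 TFIIB and 1 FAIRE.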

How the data were processed

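The authors deposited 1 peak list per target, with chromosome, start, end and 1 signal value a peak, which the file names call an area. Build mm9 is given in the submitters' processing notes. Depth was unknown, and aligner and peak caller: not given in the sources used here. Of 20 samples, 4 (total RNA, poly(A) RNA, input, rabbit immunoglobulin) were not analysed here. Areas were compared within a list only.

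Platforms, groups, mutual pairs, gaps and flanks were built in Python 3.11.15 with pandas 2.3.3, numpy 2.4.6 and scipy 1.17.1, figures with matplotlib 3.10.9, and the code was tested on simulated data. Overlap meant at least 1 bp. Shares carry 95% Wilson intervals, differences Newcombe intervals, and differences between partners, between edges and from either flank intervals over matched pairs, and "beyond counting error" means that the interval leaves out 0. The members, lists and regions were chosen with earlier results of these data known. Among pairs in groups of 2, regions were named from the 5 largest Pol II areas of a weaker partner, the 5 with most shared lists, 3 with FAIRE, ETS1 and CBP touching the gap, the 3 largest differences in list number and the 3 largest Pol II ratios, plus the 3 largest chains, and a part of these is given.

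Alternatives covered gap, width and overlap limits, the upper 50% of the lists by area, the choice of single platforms, width matching and the sex chromosomes. Gap and flanks belong to the same pairs, which Newcombe intervals do not use; with intervals over pairs the calls of 13 of 13 lists were the same. The comparisons of edges and of either flank were chosen after seeing the data.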

Additional observations from a re-analysis of the deposited data

How the results depend on the processing

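The lower FAIRE share of paired platforms kept its direction and stayed beyond counting error under 12 alternatives, from -14.0 to -8.37 points. The mean number of general factors, paired minus single, was within counting error in the main comparison and passed it with a gap limit of 2000 bp (0.0894), with no width limit (0.188) and against single platforms over 5000 bp from the next (0.0952). FAIRE in gaps minus flanks ranged from 0.865 to 7.78 points under 12 alternatives. It was within counting error against either flank of the pair (0.865) and lower as a share of covered length (2.62), and alternatives that set a gap against single flanks keep the extra platform edge of the gap. Against either flank Taf1 (-2.10), TFIIB (-4.70), TFIIE (-4.57) and TFIIH (-2.84) turned direction. Over the edges of all gaps together TFIIB (-0.309) and TFIIE (-0.185) also did. The 1800 members became 586 when platforms were rebuilt from the upper 50% of every list and 1170 when both had to share an H3K4me3 peak. ETS1 (-2.54 points), TFIIF (-0.847) and H3K4me1 (-2.54, not called before) turned direction between stronger and weaker partners of like width, a comparison chosen after seeing the data, as was that of gaps over 100 bp. The causes were not tested.

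No paired analysis was possible because each target had 1 list, so no replicate numbers pair samples; partners were matched as platforms. Small differences were not detectable with the short lists (TFIIF, Ser2P, ETS1). Whether close peaks were called from 1 broad region was not tested.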
